A study of Mus musculus with 10 samples.

Results

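The expression of 9 genes was read from the comparison of dnMKL1 with GFP cardiomyocytes, among 23337 genes listed. Of these, 5 were picked one by one because they stood low in the dnMKL1 group: Rtn4r, which encodes the Nogo receptor, the uncharacterized loci E130310I04Rik and C130080G10Rik, Rp1 and Adhfe1. The other 4 were named for their place beside the Nogo receptor: the ligand genes Rtn4, Mag and Omg and the co-receptor gene Lingo1. The log2 fold changes of this same comparison chose the first 5, so their values are given as a description with no test. No numeric threshold set them apart from the next genes.

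The cells were cardiomyocytes of wild-type mice, purified by fluorescence-activated sorting after collagenase perfusion of the heart. Mice of both groups received 5e+08 viral genomes per gram of an AAV9 vector on postnatal day 1, and cells were taken on postnatal day 14. The dnMKL1 group (n = 5) carried AAV9-cTNT-dnMKL1-GFP and the GFP group (n = 5) carried AAV9-cTNT-GFP, so that both groups expressed GFP from a cardiac troponin T promoter, a promoter of heart muscle cells. dnMKL1 is a dominant-negative form of MKL1 (MRTF-A), a coactivator of serum response factor (SRF) that monomeric actin holds in the cytoplasm. The labels call the samples biological replicates and do not say how many animals each one came from.

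The Nogo receptor is a leucine-rich-repeat protein held on the cell surface by a lipid anchor. It is best known in the nervous system, where the myelin proteins Nogo (Rtn4), myelin-associated glycoprotein (Mag) and oligodendrocyte-myelin glycoprotein (Omg) bind it and restrain axon growth. Because it has no part inside the cell, it signals through Lingo1 with the neurotrophin receptor Ngfr or its relative Tnfrsf19, and from there to the GTPase RhoA and its kinases. Rp1 encodes a microtubule-binding protein of the photoreceptor cilium that is mutated in a form of retinitis pigmentosa. Adhfe1 encodes a mitochondrial transhydrogenase that oxidizes gamma-hydroxybutyrate and in the same reaction reduces alpha-ketoglutarate to D-hydroxyglutarate.

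The positions below are those of RefSeq on GRCm38, the assembly also named mm10, which the submitters' processing notes give as the build. Rtn4r lies on the plus strand at chr16:18127642-18152408, and GENCODE M21 gives it 2 exons and 1938 exon bases. E130310I04Rik lies on the minus strand at chr16:34943175-34958994, inside the span of Mylk, which runs on the plus strand at chr16:34745199-35002436 and encodes myosin light chain kinase. C130080G10Rik lies on the plus strand at chr2:114054396-114061505 and starts 1520 bases from the start of Actc1, the cardiac actin gene, which runs the opposite way at chr2:114047282-114052875. Rp1 lies at chr1:4115673-4409266 on the minus strand and Adhfe1 at chr1:9547948-9577970 on the plus strand. Both loci without a known function are annotated as long noncoding RNAs by RefSeq and as antisense RNAs by GENCODE.

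The RefSeq promoter table (GRCm38.p6) held windows for 6 of the 9 genes, of which 3 were among those picked for their fall. Rp1, Adhfe1 and Omg had no entry. The 250 bases before the start are shown for C130080G10Rik, E130310I04Rik and Rtn4r and for Actc1, because C130080G10Rik and Actc1 start from the same stretch between the genes and both stood low in the dnMKL1 group. Capitals mark every match to the motifs searched on both strands: the CArG box, which SRF binds, CATTCC, bound by TEAD factors, TATAAA and the GATA-type AGATAA. The windows lie at chr2:114054146-114054395 (plus strand), chr2:114052876-114053125 (minus strand), chr16:34958995-34959244 (minus strand) and chr16:18127392-18127641 (plus strand), in the order shown.
C130080G10Rik: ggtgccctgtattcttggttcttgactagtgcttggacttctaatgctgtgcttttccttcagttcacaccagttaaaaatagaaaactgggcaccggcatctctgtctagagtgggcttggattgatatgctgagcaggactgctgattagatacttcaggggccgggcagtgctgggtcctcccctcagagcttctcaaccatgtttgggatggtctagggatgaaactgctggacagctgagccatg
Actc1: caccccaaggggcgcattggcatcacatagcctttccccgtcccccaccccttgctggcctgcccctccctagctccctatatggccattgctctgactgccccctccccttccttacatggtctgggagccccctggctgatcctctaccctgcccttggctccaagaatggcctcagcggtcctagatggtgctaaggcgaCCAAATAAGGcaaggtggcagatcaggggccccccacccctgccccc
E130310I04Rik: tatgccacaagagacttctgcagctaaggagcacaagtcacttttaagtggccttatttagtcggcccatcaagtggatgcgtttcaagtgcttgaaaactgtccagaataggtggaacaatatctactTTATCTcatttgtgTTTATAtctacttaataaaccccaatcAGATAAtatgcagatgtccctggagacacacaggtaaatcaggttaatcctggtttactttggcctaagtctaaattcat
Rtn4r: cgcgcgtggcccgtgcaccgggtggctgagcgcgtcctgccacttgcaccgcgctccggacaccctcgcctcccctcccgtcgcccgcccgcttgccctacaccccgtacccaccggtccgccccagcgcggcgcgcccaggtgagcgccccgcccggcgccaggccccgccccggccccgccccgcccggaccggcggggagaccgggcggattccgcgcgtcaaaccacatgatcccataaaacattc

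Of these 4 windows, that of Actc1 held a CArG box with the letters CCAAATAAGG, which covers bases 47 to 38 before its start. A CArG box was present in 1.63% of the 32851 promoter windows of 300 bases in the table. No match to any of the 4 motifs was found in the bases shown for C130080G10Rik and Rtn4r. In the window of E130310I04Rik, AGATAA was found on each strand and TATAAA on the strand opposite to the gene. AGATAA was present in 11.2%, TATAAA in 13.6% and CATTCC in 14.7% of all windows. The bases shown for Rtn4r were 77.2% G and C, a content that 2.58% of all windows reach, against 50.4% for C130080G10Rik, 39.2% for E130310I04Rik and a median of 52.4% over all windows. For Rtn4 and for Mag there were 3 windows each, 1 of which held CATTCC, and the 2 windows of Lingo1 held none of the motifs. These matches describe letters in these windows only.

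The deposited table holds the comparison and no values per library, so the spread within a group enters through the deposited standard error (SE). Positive log2 fold changes were read as higher in dnMKL1, because Mkl1, from which the vector's product derives, stood at 9.80 (SE 0.15) in the authors' deposited table. Library totals estimated through the recovered size factors ran from 8802947 to 17123500 counts with GFP and from 8835151 to 17228537 with dnMKL1. Group means were computed from the deposited base mean and fold change and are called implied means, in normalized counts. The authors' deposited table gives 14056 genes an adjusted p-value. It was under 0.05 for 34.1% of them, split into 16.6% higher and 17.4% lower in dnMKL1. Scaling both groups to the same total would add 0.29 to every log2 fold change, and all values here keep the authors' scaling. Of the 9 genes described, 7 passed the authors' filter on low values, Omg had no adjusted p-value and Mag was listed at 0.

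The sorted cells expressed cardiomyocyte genes far above those of other cells. The 8 cardiomyocyte markers, among them Myh6 and Tnnt2, had summed implied means of 1438325 normalized counts with GFP and 789908 with dnMKL1. Myh6 alone went from 768373 to 421599. By adjusted p-value 6 of 8 were lower, beside 17.4% over all genes, while Myl2 at -0.20 (SE 0.11) and Pln at -0.21 (SE 0.11) were not called. Under total-count scaling 4 of 8 were lower. In such bulk samples, fewer cells of a type and less RNA per cell cannot be told apart. Summed implied means of 6 endothelial markers were 2410 and 2493, with 0 of 6 past an adjusted p-value of 0.05 by the authors' Wald test and 0 of 6 under an unadjusted 0.05. Those of 6 fibroblast markers were 3093 and 4303, with 3 of 6 higher, and those of 6 leukocyte markers were 136 and 123, with 1 of 6 higher. Over all genes 16.6% were higher. The part of these shifts in the results below was not tested.

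In dnMKL1 cardiomyocytes the transcript of the Nogo receptor stood low, while that of its ligand Nogo rose. The relative Rtn4rl1 and the co-receptor genes Lingo1, Ngfr and Tnfrsf19 did not pass the test under the authors' scaling, and the myelin ligands Mag and Omg had next to no reads. Rtn4r had implied means of 437.8 normalized counts with GFP and 52.0 with dnMKL1. The authors' deposited table lists it at a log2 fold change of -3.07 (SE 0.25), an 8.42-fold lower level with a 95% interval from 5.97 to 11.9. These means correspond to about 2146 reads over the 5 GFP libraries and 289 over the 5 dnMKL1 libraries. Counting error alone would give an SE of 0.090, so the deposited SE was 2.81 times as large. Among 9874 genes whose base mean reached 50, Rtn4r ranked 3 by the size of its fall.

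**Figure D1:**
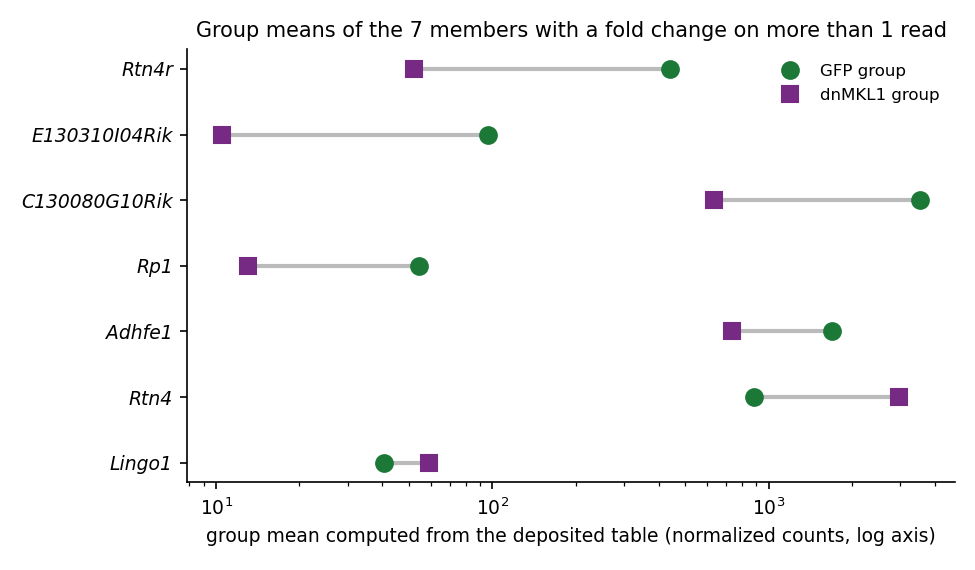
Implied group means in normalized counts (log axis) for the 7 genes with more than 1 read, with circles for the GFP group and squares for the dnMKL1 group. The 5 upper genes, picked for their fall, have the square to the left, from 10.5 against 96.5 for E130310I04Rik to 740.1 against 1692 for Adhfe1, and Rtn4 and Lingo1 have it to the right.

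The ligand gene Rtn4 rose. Its implied means were 888.4 normalized counts with GFP and 2955 with dnMKL1. The authors' deposited table lists Rtn4 at a log2 fold change of 1.73 (SE 0.18), a 3.33-fold higher level with a 95% interval from 2.61 to 4.24 (Benjamini-Hochberg adjusted Wald p = 3.9e-20). The gene gives rise to the proteins Nogo-A, Nogo-B and Nogo-C, which a count per gene does not separate. In GENCODE, Rtn4 shares 1284 of its 6991 exon bases with Eml6 on the other strand.

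The co-receptor gene Lingo1 did not pass the threshold. Its implied means were 40.5 and 58.7 normalized counts in the GFP and dnMKL1 groups. The authors' deposited table gave a log2 fold change of 0.54 (SE 0.25, Benjamini-Hochberg adjusted Wald p = 0.0889), and the 95% interval ran from 0.04 to 1.03. The interval thus lay just above 0 before adjustment for the number of genes. An adjusted p-value under 0.1 or total-count scaling would put it past the threshold.

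The myelin ligands were at or next to no reads. Mag was listed at 0 in the authors' deposited table, so no read was counted over 10 libraries. By counting error alone, an expected total of up to 3 reads can still give 0. Omg had a base mean of 0.109 normalized counts in the authors' deposited table, the value that 1 read in 1 dnMKL1 library with a size factor of 0.921 gives. No fold is given for either. Reads carry no molecular identifiers, so such limits cover counting error only.

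On the receptor side, Rtn4r stood apart from its nearest relative in value. Rtn4rl1, which encodes another Nogo receptor, had a log2 fold change of 0.05 (SE 0.10) in the authors' deposited table (Benjamini-Hochberg adjusted Wald p = 0.749). Under total-count scaling its value was 0.34 and passed the threshold. Per kilobase of GENCODE exon, the implied level of Rtn4r was 226 normalized counts in the GFP group against 115 for Rtn4rl1. In the dnMKL1 group the same levels were 26.8 for Rtn4r and 119 for Rtn4rl1. The order of the 2 receptors was opposite in the groups. Rtn4r was picked for its fall in this same comparison, so that order describes the choice. The difference between the genes was not tested.

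On the same side, 10 genes other than Rtn4r were listed, namely receptors, co-receptors and the LINGO family. Of the 7 with an adjusted p-value, 1 was higher and 1 was lower, beside the 16.6% and 17.4% over all genes. Their median log2 fold change was 0.05, against 0.02 over all genes tested. S1pr2, a sphingosine-phosphate receptor that also binds Nogo-A, was higher at 0.85 (SE 0.34) in the authors' deposited table (Benjamini-Hochberg adjusted Wald p = 0.0386), though not at a threshold of 0.01. Lingo3, a relative of Lingo1, was lower at -1.07 (SE 0.25) in the authors' deposited table (Benjamini-Hochberg adjusted Wald p = 1.5e-04). The signalling co-receptors did not pass the test: the authors' deposited table gave -0.29 (SE 0.18) for Tnfrsf19, and 2.44 (SE 1.12) for Ngfr at a base mean of 1.93 normalized counts. Ngfr passed at an adjusted p-value under 0.1 and, at 2.72, under total-count scaling.

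Among 15 genes of the ligand side, including other reticulons and partners of Nogo, 11 had an adjusted p-value, of which 4 were higher and 2 lower, beside the 16.6% and 17.4% over all genes. Their median log2 fold change was 0.12, against 0.02 over all genes tested. The reticulons related to Rtn4 did not pass the test, at 0.12 (SE 0.46) for Rtn1, -0.0020 (SE 0.13) for Rtn2 and 0.12 (SE 0.06) for Rtn3 in the authors' deposited table. Under total-count scaling the value of Rtn2 turned to 0.29 and that of Rtn3 to 0.41, the latter then past the threshold. Sptlc1 and Sptlc2, subunits of the serine palmitoyltransferase that Nogo-B restrains in blood vessels, were both higher at 0.38 in the authors' deposited table (SE 0.12 and 0.10). Rtn4ip1, a mitochondrial protein named for its binding to Nogo, was lower at -0.91 (SE 0.11) in the authors' deposited table (Benjamini-Hochberg adjusted Wald p = 5.4e-15). Lgi1, a secreted protein that binds the Nogo receptor, was lower at -1.88 (SE 0.68) in the authors' deposited table with a base mean of 10.98, and lost the call at a threshold of 0.01.

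**Figure D2:**
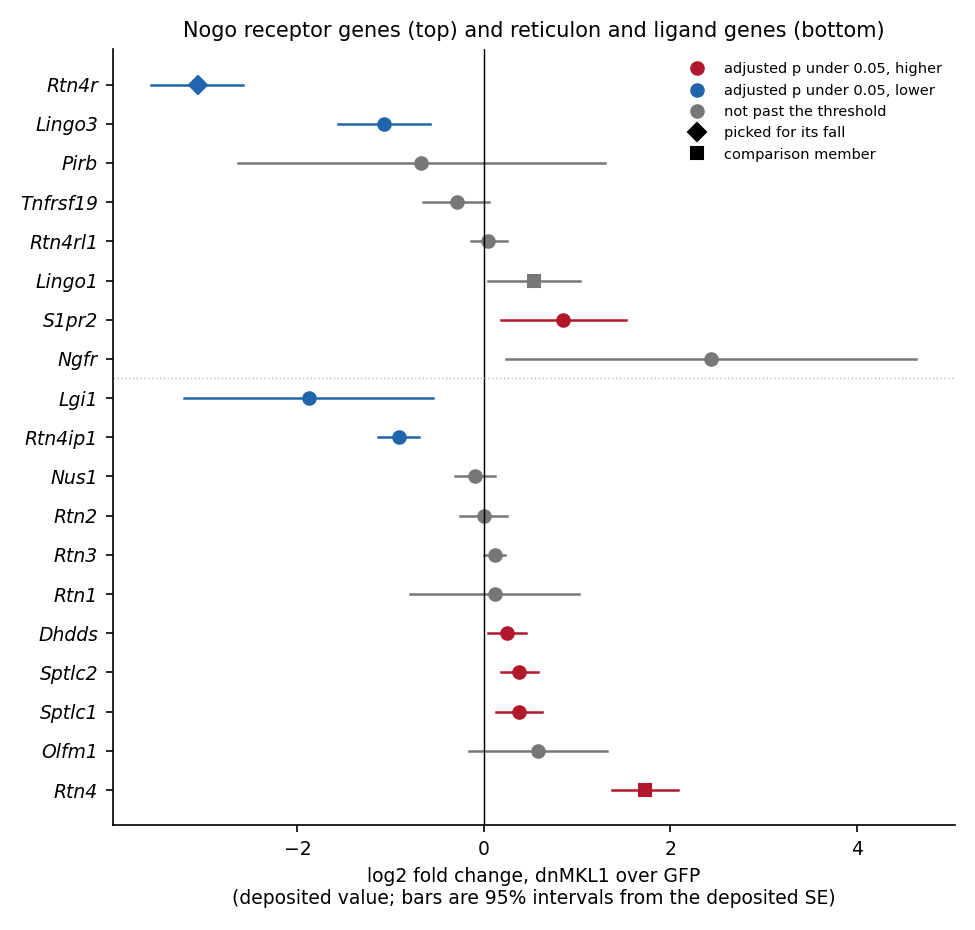
Deposited log2 fold change (dnMKL1 over GFP) with 95% intervals for the receptor-side genes, above the dotted line, and the ligand-side genes, below it, coloured by adjusted p-value. Rtn4r at -3.07 and Rtn4 at 1.73 lie farthest from 0 in opposite directions among genes whose base mean reached 50, while Rtn4rl1 and the other reticulons lie near 0 under the authors' scaling.

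Genes that act after the receptor were mostly higher or not past the test. Of 16 genes of the RhoA and ROCK branch, all with an adjusted p-value, 8 were higher and 1 was lower beside the 16.6% and 17.4% over all genes. The median log2 fold change was 0.28. Rhoa itself had 0.09 (SE 0.08) in the authors' deposited table (Benjamini-Hochberg adjusted Wald p = 0.454). Arhgdia, an inhibitor that keeps RhoA and its relatives soluble, was higher at 0.72 (SE 0.07) in the authors' deposited table (Benjamini-Hochberg adjusted Wald p = 1.9e-20). Rock1, a kinase that RhoA activates, was higher at 0.26 (SE 0.07) in the authors' deposited table, and Dpysl2, a collapse-signalling protein that ROCK phosphorylates, at 0.78 (SE 0.16). The cofilins, which sever actin filaments, went opposite ways: the authors' deposited table gave 0.69 (SE 0.14) for Cfl1 and -0.40 (SE 0.09) for the muscle form Cfl2. Under total-count scaling 12 of the 16 were higher and none was lower, with Cfl2 at -0.11 and no longer called.

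E130310I04Rik had implied means of 96.5 normalized counts with GFP and 10.5 with dnMKL1. The authors' deposited table lists it at a log2 fold change of -3.20 (SE 0.27), a 9.16-fold lower level with a 95% interval from 6.35 to 13.2. About 473 and 58.6 reads stood behind the group means, and counting error alone would give an SE of 0.20. Mylk, whose span holds the locus, had a log2 fold change of 0.09 (SE 0.23) in the authors' deposited table (Benjamini-Hochberg adjusted Wald p = 0.826). The library kits named in the labels do not mark strand, and 548 of the 3755 exon bases of E130310I04Rik in GENCODE are shared with Mylk exons. Reads from those bases cannot be told apart between the genes. Per kilobase of exon, the locus stood at 605% of the level of Mylk with GFP and at 62.0% with dnMKL1.

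C130080G10Rik had the highest base mean of the picked genes, although Adhfe1 stood above it in the dnMKL1 group. Its implied means were 3529 normalized counts with GFP and 636.4 with dnMKL1. The authors' deposited table gave a log2 fold change of -2.47 (SE 0.17), a 5.54-fold lower level with a 95% interval from 4.38 to 7.01. Actc1, which starts on the other side of the same stretch, also fell, from an implied mean of 326267 to 111228. The authors' deposited table lists Actc1 at a log2 fold change of -1.55 (SE 0.15, Benjamini-Hochberg adjusted Wald p = 7.7e-24). C130080G10Rik thus had a log2 fold change lower by 0.92 than Actc1, a difference that was not tested because the table gives no covariance between genes.

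Per kilobase of exon, the level of C130080G10Rik was 0.677% of that of Actc1 with GFP and 0.358% with dnMKL1. GENCODE gives the pair no shared exon bases, and its longest models leave 786 bases between them. In GENCODE, C130080G10Rik shares 1001 of its 2586 exon bases with A530058N18Rik, a noncoding locus on the same strand. RefSeq places A530058N18Rik 22.1 kb away without overlap, and it was listed at 0 in the authors' deposited table. Aqr, the next tabled gene on the far side at a distance of 39.7 kb, was higher at 0.27 (SE 0.11) in the authors' deposited table (Benjamini-Hochberg adjusted Wald p = 0.039).

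**Figure D3:**
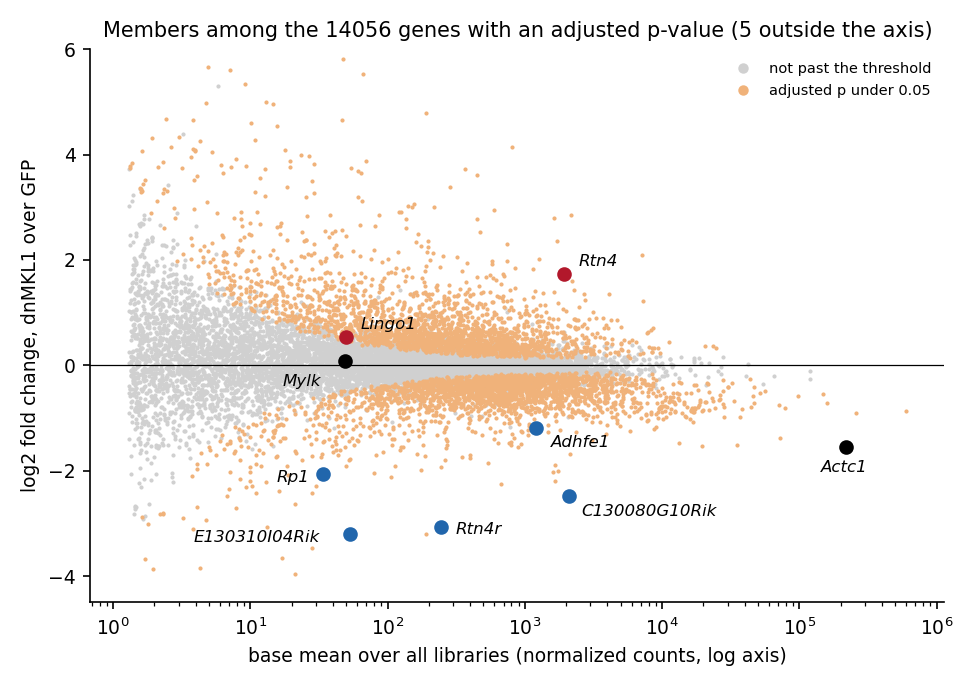
Deposited log2 fold change against base mean (log axis) for the 14056 genes with an adjusted p-value, with picked genes in blue, Rtn4 and Lingo1 in red, and Actc1 and Mylk in black, and 5 genes beyond the axis. Rtn4r, E130310I04Rik and C130080G10Rik lie at the lower edge of genes of their level, while Adhfe1 at -1.19 has 92 genes below it among those whose base mean reached 50.

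Rp1 had the lowest base mean of the picked genes, although E130310I04Rik stood below it in the dnMKL1 group. Its implied means were 54.4 normalized counts with GFP and 13.1 with dnMKL1, from about 266 and 72.7 reads. The authors' deposited table gave a log2 fold change of -2.06 (SE 0.28), a 4.16-fold lower level with a 95% interval from 2.83 to 6.12. Counting error alone would give an SE of 0.19. With GENCODE's 12311 exon bases, these means were 4.42 and 1.06 normalized counts per kilobase, the lowest of the 5 picked genes in both groups.

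Rp1 belongs to the family of proteins with doublecortin domains, which bind microtubules. Of 8 other members, 3 were listed at 0, among them the closest relative Rp1l1. Of the 5 with an adjusted p-value, 2 were higher and 0 lower, beside the 16.6% and 17.4% over all genes. Dclk3 and Dcdc2a were higher at 3.10 (SE 0.83) and 3.35 (SE 1.26) in the authors' deposited table, at base means of only 4.81 and 2.34 normalized counts. A minimum base mean of 10 removes both. Dcdc2b, the member closest to Rp1 in level, had 0.14 (SE 0.22) in the authors' deposited table (Benjamini-Hochberg adjusted Wald p = 0.699).

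Most other photoreceptor genes had few reads or none, Rom1 being the exception. Of 11 such genes besides Rp1, 2 were listed at 0, 6 had reads and no adjusted p-value, and 3 were tested. Rom1, a membrane protein of photoreceptor discs, was lower at -1.14 (SE 0.20) in the authors' deposited table, with a base mean of 78.5 normalized counts (Benjamini-Hochberg adjusted Wald p = 2.0e-07). Sag, which encodes retinal arrestin, had 0.81 (SE 0.45) at a base mean of 9.27 in the authors' deposited table and did not pass the test.

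Adhfe1 had the smallest fall of the 5 picked genes. Its implied means were 1692 normalized counts with GFP and 740.1 with dnMKL1. The authors' deposited table gave a log2 fold change of -1.19 (SE 0.15), a 2.29-fold lower level with a 95% interval from 1.86 to 2.81. It ranked 93 among the falls of the 9874 genes whose base mean reached 50, so that the description as one of the strongest falls held less well for it. In the same ranking E130310I04Rik was 2 and C130080G10Rik was 4. Rp1, below that base mean, ranked 20 among the 11922 genes whose base mean reached 10.

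The first 10 places of that ranking also held Ces1d, a lipid-cleaving carboxylesterase, at -3.20 (SE 0.30) and the channel subunit gene Kcnip2 at -2.24 (SE 0.24) in the authors' deposited table. Others were Frmd5, N28178, Art1 and Sh3kbp1, with log2 fold changes from -2.19 to -2.01 in the authors' deposited table.

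Enzymes on either side of Adhfe1 were lower as well. Of 11 other genes of gamma-hydroxybutyrate and hydroxyglutarate metabolism, 9 had an adjusted p-value, of which 8 were lower and 0 higher, beside 17.4% lower over all genes. Their median log2 fold change was -0.57, against 0.02 over all genes tested. The cardiomyocyte markers described above had a similar median of -0.54, and the difference between the lists was not tested. D2hgdh, which oxidizes D-hydroxyglutarate back to alpha-ketoglutarate, was lower at -0.48 (SE 0.09) in the authors' deposited table. Aldh5a1 and Akr7a5, which oxidize and reduce succinic semialdehyde, were lower at -0.67 (SE 0.10) and -0.57 (SE 0.11) in the authors' deposited table.

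The enzymes that make or use alpha-ketoglutarate in mitochondria were far more abundant. The authors' deposited table gave -0.49 (SE 0.12) for Idh2 at a base mean of 27750, -0.79 (SE 0.10) for Got2 at 10796 and -0.58 (SE 0.09) for Ogdh at 46262. Idh1, the cytosolic isocitrate dehydrogenase, was lower at -0.53 (SE 0.14) in the authors' deposited table. Abat, the transaminase that removes the amino group of GABA, had 0.34 (SE 0.17) in the authors' deposited table and did not pass the test. Under total-count scaling 5 of the 9 remained lower, while D2hgdh, Idh1 and Idh2 kept their sign without the call and Abat was called higher.

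**Figure D4:**
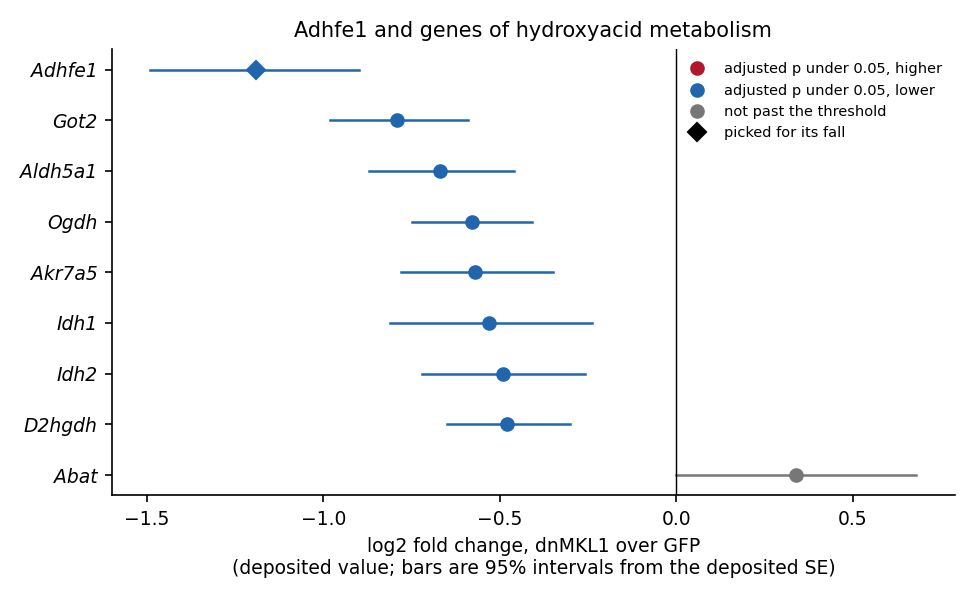
Deposited log2 fold change (dnMKL1 over GFP) with 95% intervals for Adhfe1 and 8 of the 9 other tested genes of hydroxyacid metabolism. All but Abat lie below 0, and Adhfe1, at -1.19, lies lowest, which its choice as a low gene favoured.

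Adhfe1 is an iron-dependent relative of the alcohol dehydrogenases. Of 10 genes of the classical alcohol and aldehyde dehydrogenases, 9 were matched and 6 had an adjusted p-value. Of these, 1 was higher and 1 lower, beside the 16.6% and 17.4% over all genes, with a median of -0.01. Aldh3a2, which oxidizes fatty aldehydes, was higher at 0.62 (SE 0.09) in the authors' deposited table (Benjamini-Hochberg adjusted Wald p = 9.6e-11). Adh5, which acts on glutathione-bound formaldehyde, was lower at -0.23 (SE 0.07) in the authors' deposited table, a direction that total-count scaling turned to 0.06. Aldh2, the mitochondrial aldehyde dehydrogenase, had 0.12 (SE 0.17) in the authors' deposited table and did not pass the test.

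Neighbouring genes were read for each picked gene, taking those that overlap it and the 3 nearest on each side in RefSeq. Of 36 such entries 20 were in the table and 14 had an adjusted p-value, of which 5 were lower and 1 higher, beside 17.4% lower and 16.6% higher over all genes. The 5 lower ones were Actc1 beside C130080G10Rik, Prodh and Dgcr6 beside Rtn4r, Adcy5 beside E130310I04Rik, and Rrs1 beside Adhfe1. Of these, only Actc1 and Prodh kept the call under total-count scaling. Adcy5, then at -0.58, and Rrs1, at -0.15, lost it, and Ccdc14 beside E130310I04Rik was called higher at 0.60. Prodh, the mitochondrial enzyme that starts proline breakdown, lies 38.4 kb from Rtn4r and had -1.32 (SE 0.28) in the authors' deposited table (Benjamini-Hochberg adjusted Wald p = 2.1e-05). Dgcr6 had -0.28 (SE 0.10) in the authors' deposited table, which total-count scaling turned to 0.01. RefSeq also places a gene model named Gm52241, not in the table, overlapping Rtn4r.

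Rrs1, a ribosome assembly factor that lies 492 bases from Adhfe1, had -0.43 (SE 0.12) in the authors' deposited table (Benjamini-Hochberg adjusted Wald p = 0.00123). The noncoding locus 2610203C22Rik, which overlaps Adhfe1 on the other strand by 154 exon bases, had -1.41 (SE 0.66) at a base mean of 4.08 in the authors' deposited table and did not pass the test. Adcy5, an adenylyl cyclase of the heart, lies 195 kb from E130310I04Rik and had -0.87 (SE 0.26) in the authors' deposited table (Benjamini-Hochberg adjusted Wald p = 0.00379). The one tested neighbour of Rp1 was Sox17, an endothelial transcription factor, with 0.23 (SE 0.35) in the authors' deposited table (Benjamini-Hochberg adjusted Wald p = 0.682).

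**Figure D5:**
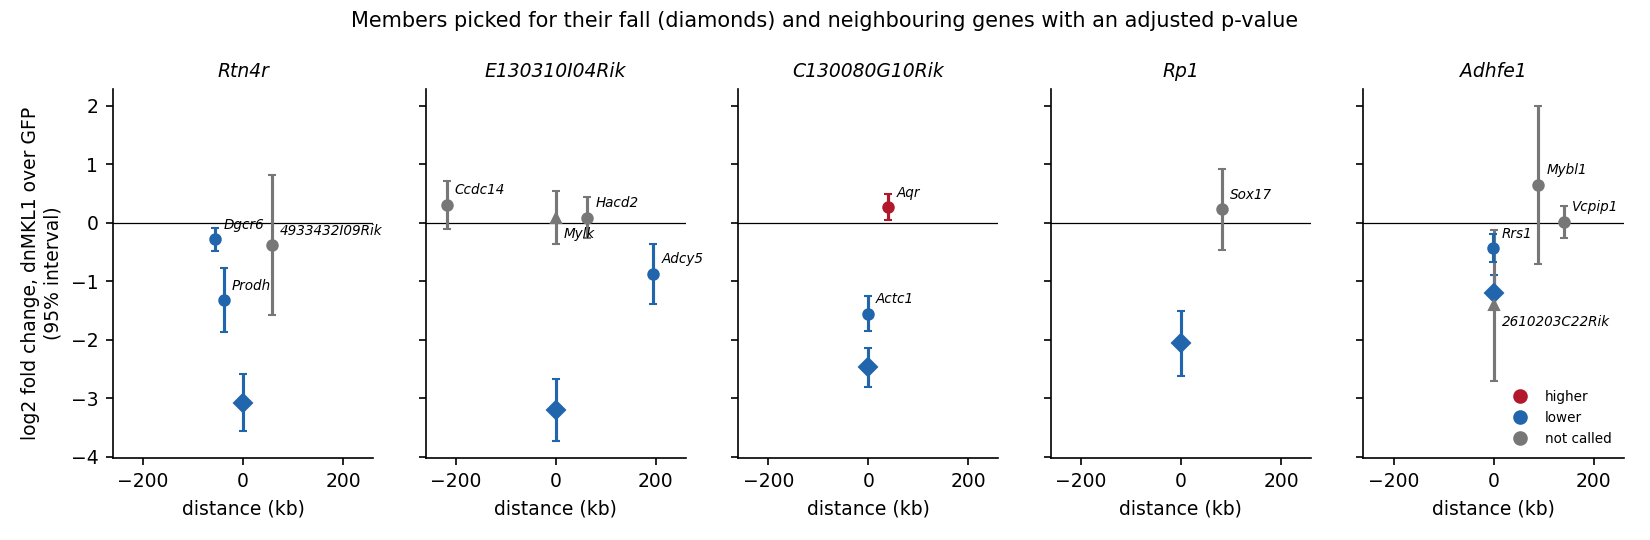
Deposited log2 fold change with 95% intervals against distance in kb (negative towards lower coordinates) for each picked gene (diamond) and its neighbours with an adjusted p-value; triangles overlap the gene, and colours give the call. Each picked gene except Adhfe1 lies below all its tested neighbours, which their choice as low genes favoured. Leaving Adhfe1 aside, Actc1 at -1.55 comes closest in value to its picked gene, C130080G10Rik at -2.47. The Adhfe1 neighbours 2610203C22Rik at -1.41, not called, and Rrs1 at -0.43 lie closer still to Adhfe1 at -1.19.

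Myelin and nerve genes were read because the Nogo receptor and its ligands are best known there. Of 12 genes of myelinating glia, Mag and Mog were listed at 0 and 7 had an adjusted p-value, of which 4 were higher and 0 lower, beside the 16.6% and 17.4% over all genes. Their summed implied means were 737 normalized counts with GFP and 1170 with dnMKL1, most of it from Pmp22, a membrane protein that many cells express, with 0.64 (SE 0.10) in the authors' deposited table. Cnp, an enzyme of myelin membranes, was higher at 1.03 (SE 0.17) in the authors' deposited table (Benjamini-Hochberg adjusted Wald p = 8.1e-09). Of 12 neuronal genes, 5 were tested, with 1 higher and 1 lower, and the summed implied means were 128 and 114. Tubb3, a neuronal tubulin, was higher at 5.01 (SE 0.91) in the authors' deposited table at a base mean of 13.0, and Dbh, the noradrenaline-making enzyme, was lower at -0.64 (SE 0.26). Dbh lost the call at a threshold of 0.01 and, at -0.35, under total-count scaling.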

How the data were processed

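RNA of sorted cardiomyocytes (10 ng) was reverse transcribed and amplified over 8 PCR cycles with a SMART-Seq kit, and 500 pg of cDNA entered a Nextera XT preparation, per the labels' protocols. Reads were aligned with STAR 2.5.3a and counted with featureCounts (Subread 1.5.2) on mm10, per the submitters' processing notes. The annotation and strand setting are not given in the sources used here. One table was deposited, and its columns are those DESeq2 writes, per the file headers. Its base mean is a deposited signal, in counts after division by size factors. Fold changes and SEs were deposited as log2 values. The Wald statistic, a deposited score, matched their ratio (largest gap 1.14e-05). The deposited p-value was adjusted by the authors over 14056 genes, which was recomputed with a largest gap of 1.44e-07.

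From these, implied means were computed as the pair of group means with the deposited average and ratio. Size factors came from the base means of genes that a single read in a single library explains. Intervals are the fold change ± 1.96 SE. The threshold was the deposited adjusted p-value under 0.05. Older symbols were matched through RefSeq synonyms. Scripts (Python 3.11.15, pandas 2.3.3) were tested on simulated data. Members and lists were chosen with earlier results of these data known. Named genes were the members, the listed genes, the 10 largest falls whose base mean reached 50 and the 3 nearest genes on each side. Without values per library no SD, count test or figure by sample could be made. The p-values weigh each fold change against its SE, through which the spread between these samples enters. Single values of some genes counted in the lists are not reported here.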

Additional observations from a re-analysis of the deposited data

How the results depend on the processing

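No paired analysis was possible because the table holds no values per library. For the same reason fits that each leave out 1 library, a count test with edgeR and one with DESeq2 were not run, and whether 1 library decides a value is unknown.

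Total-count scaling adds 0.29 to every gene by construction. Under it the picked genes stayed low, at -2.79 for Rtn4r, -2.91 for E130310I04Rik, -2.18 for C130080G10Rik, -1.77 for Rp1 and -0.91 for Adhfe1. Lingo1, at 0.82, then passed the threshold, as it did at an adjusted p-value under 0.1 with 0.54. Genes that turned were Rtn2 (0.29), Nus1 (0.19), Adh5 (0.06), Aldh9a1 (0.05) and Dgcr6 (0.01). Counts of higher genes became 4 on the receptor side, 1 in hydroxyacid metabolism, 2 among alcohol and aldehyde dehydrogenases and 1 among photoreceptor genes. Counts of lower genes became 0 in the RhoA and ROCK branch and 0 among the dehydrogenases.

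At an adjusted p-value under 0.01, 1 ligand-side gene was lower, 0 on the receptor side and 1 with doublecortin domains were higher. At 0.1, 3 receptor-side genes were higher and 2 dehydrogenases lower. With a base mean of at least 10, 0 doublecortin genes were higher, since fewer genes can pass, and the falls ranked 6 (Rtn4r), 5 (E130310I04Rik), 9 (C130080G10Rik) and 161 (Adhfe1), since more genes are ranked. In the 250 bases before the start alone, a shorter stretch, the share of promoters was 1.47% for the CArG box, 12.6% for CATTCC, 12.4% for TATAAA and 9.99% for AGATAA. Median-centring changed no call or direction of the members and named genes.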

Other observations

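Slc25a1, the carrier that exports citrate from mitochondria, lies in the same chromosomal region as Rtn4r and Prodh and was higher at 1.75 (SE 0.20) in the authors' deposited table, with a base mean of 113 normalized counts. It was chosen after its value was seen and falls outside the rule for named genes.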
